A study of Mus musculus with 6 samples.

Results

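The genes described here are 10 of the 18820 tested: the CD200 receptors Cd200r1 and Cd200r4, the CD300 family members Cd300a, Cd300ld and Cd300lf, the sialic acid-binding lectins (Siglecs) Cd22, Cd33 and Siglec1, and Sirpa with its ligand Cd47. They were taken from the deposited values as every probe set whose annotated symbol includes one of the 10 names, which gave 11 probe sets with 1 symbol and 0 with several. Each gene had 1 probe set except Cd47, which had 2. Expression was measured on Affymetrix arrays in macrophages grown from the bone marrow of male mice 12 to 16 weeks old, on 3 arrays of cells from mice with a Gps2 knockout (GPS2KO) and 3 of cells from wild-type mice (WT). All 6 cultures were differentiated for 7 days with supernatant of L929 fibroblasts, the source of macrophage growth factor, and none received a stimulus. GPS2 works in the nucleus as part of a complex that represses transcription. The labels call the knockout GPS2KO, MKO or a macrophage knockout, and give neither the Cre driver nor the deleted exons. Nothing in them says whether the arrays of a group come from different mice, so the spread between arrays may be technical. The 10 names were chosen by family and with the measured log2 differences between GPS2KO and WT known. Those differences are therefore given as a description, with no p-value.

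These receptors set how readily a macrophage responds. Many carry immunoreceptor tyrosine-based inhibitory motifs (ITIMs) in the cytoplasmic tail, which recruit the phosphatases SHP-1 and SHP-2 when the receptor meets its ligand. CD200R1 instead docks the adaptor DOK2. Several relatives have short tails and pair with the activating adaptors DAP12 or the Fc receptor gamma chain, so the same families hold opposing receptors. Of the 10 genes, CD300A, CD300LF, CD22 and SIRPA carry ITIMs, whereas mouse CD200R4 and CD300LD pair with activating adaptors and mouse CD33 lacks the ITIM of its human counterpart. SIGLEC1 has no inhibitory motif and acts in adhesion, and CD47 is a ligand. The label of inhibitory receptors that grouped them thus covers only some of them, and RNA levels bear on neither function.

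In GPS2KO macrophages the arrays lay above all WT arrays for Cd200r1, Cd200r4, Cd300ld, Cd300lf, Cd22, Cd33 and, by a narrow gap, Sirpa. They lay below all WT arrays for Siglec1 and Cd47, and the groups overlapped for Cd300a. Among all 18820 genes, the groups did not overlap with GPS2KO higher for 11.9% and with GPS2KO lower for 15.2% (27.1% in either direction). The limma threshold of an adjusted p of 0.05 was passed by 6 of the 10 on the higher side and by 2 on the lower side, against 2.9% and 3.83% of all genes (6.72% in either direction). Since the names were chosen with this comparison known, nothing is read from that count. The median difference, GPS2KO minus WT, was 0.30 on the log2 scale over the 10 genes and -0.01 over all genes. All 10 had a mean over the arrays above 5.49, the 40th percentile of the tested genes, under which a signal was called dim.

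**Figure D1:**
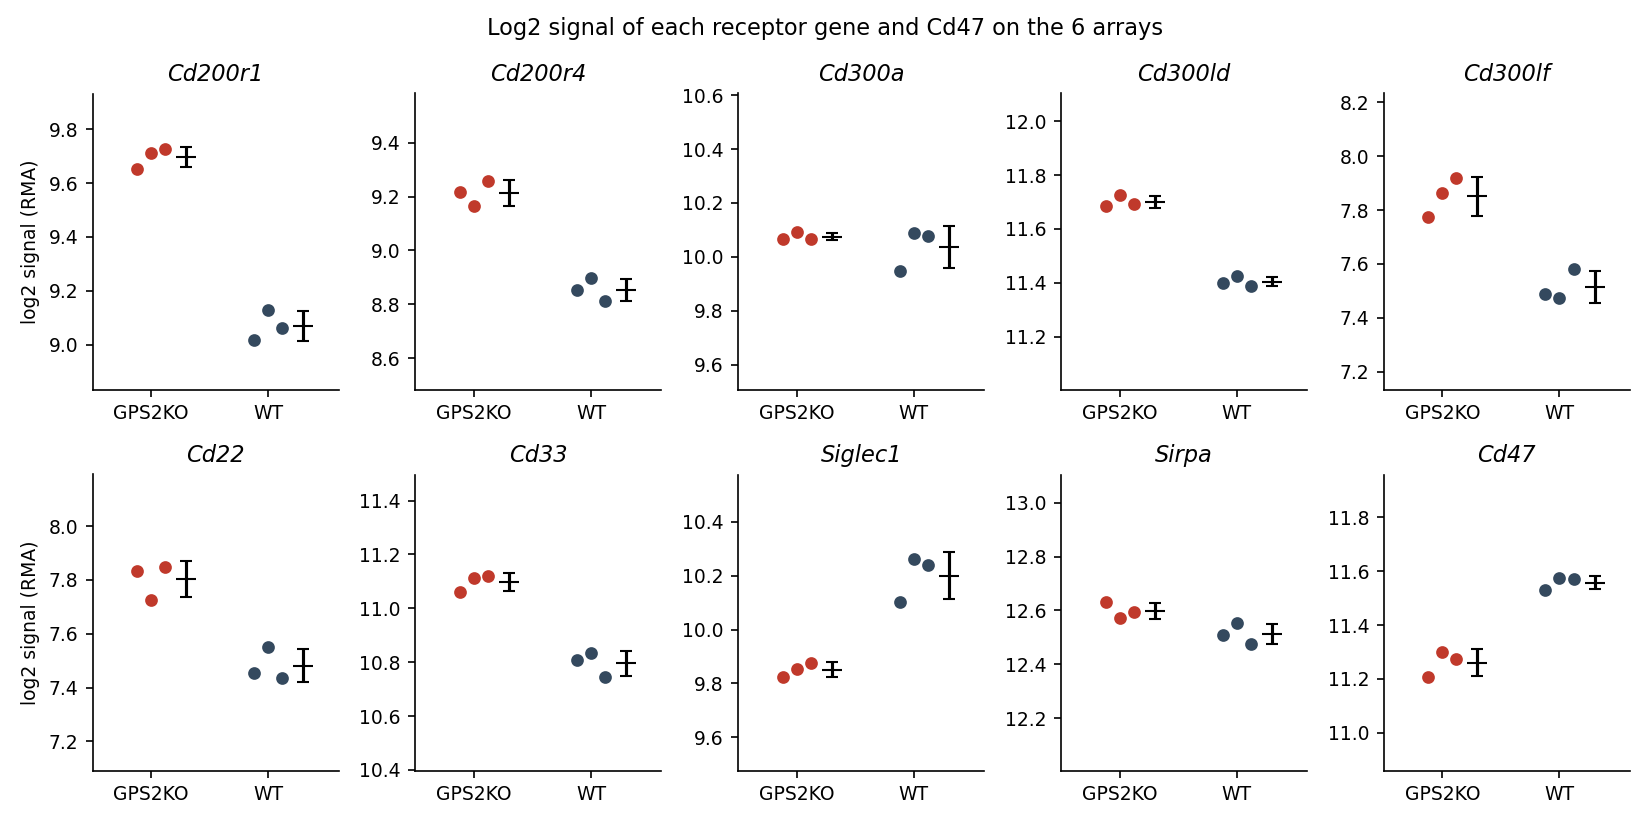
Log2 signal (vertical axis, 1 point per array) of the 10 genes on the 3 GPS2KO arrays and the 3 WT arrays, with the mean and SD beside each group. Every panel spans the same number of log2 units but is placed at its own level, and the groups overlap for Cd300a alone.

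The promoter sequences of Cd300lf, Cd300ld and Cd300a, genes of 1 cluster, were read for 1 motif in the windows next to their start sites. Windows of the other CD300 genes are not given. RefSeq windows (GRCm38.p6, 300 bases, from 250 before to 50 after an annotated start site) were found for 7 of the 10 genes, namely Cd22, Cd33, Cd300a, Cd300ld, Cd300lf, Cd200r4 and Cd47. Those of Cd300lf (chr11:115133943-115134242, minus strand), Cd300ld (chr11:114989837-114990136, minus strand) and Cd300a (chr11:114889791-114890090, plus strand) are printed in the direction of transcription because their genes lie in 1 run, with the PU box in capitals. The PU box, GAGGAA on either strand (TTCCTC when read on the other), is the core bound by PU.1, the transcription factor that specifies macrophages.
Cd300lf: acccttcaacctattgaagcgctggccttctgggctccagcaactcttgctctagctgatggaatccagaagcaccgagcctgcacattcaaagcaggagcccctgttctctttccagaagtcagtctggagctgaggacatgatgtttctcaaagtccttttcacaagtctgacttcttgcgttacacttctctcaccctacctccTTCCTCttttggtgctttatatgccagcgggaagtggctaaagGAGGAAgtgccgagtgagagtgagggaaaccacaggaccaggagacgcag
Cd300ld: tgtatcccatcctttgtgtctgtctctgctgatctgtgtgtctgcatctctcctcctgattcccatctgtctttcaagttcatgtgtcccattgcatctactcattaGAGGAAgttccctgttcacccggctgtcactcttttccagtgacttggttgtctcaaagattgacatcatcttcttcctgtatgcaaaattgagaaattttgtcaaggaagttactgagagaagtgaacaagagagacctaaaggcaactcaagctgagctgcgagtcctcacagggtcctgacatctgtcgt
Cd300a: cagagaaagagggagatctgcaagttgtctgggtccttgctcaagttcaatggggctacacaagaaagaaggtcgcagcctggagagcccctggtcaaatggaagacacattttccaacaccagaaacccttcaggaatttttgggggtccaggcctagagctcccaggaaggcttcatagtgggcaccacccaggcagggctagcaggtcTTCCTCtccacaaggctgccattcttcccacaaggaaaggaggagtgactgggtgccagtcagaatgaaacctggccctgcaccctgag
Counted from 1 at the 5′ end of the window, PU boxes began at base 251 and, on the other strand, at base 208 in Cd300lf, at base 108 in Cd300ld and at base 212, on the other strand, in Cd300a. Cd33 had 1, at base 25, and the windows of Cd22, Cd200r4 and Cd47 had none. Of all 32851 RefSeq promoter windows, 28.3% hold the motif. The PU box was therefore present in Cd300a, whose signal overlapped between the groups, as well as in Cd300lf and Cd300ld, whose signals did not.

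Cd200r1 encodes the inhibitory receptor for CD200, a membrane protein of neurons, endothelium and lymphocytes. Its log2 signal was 9.653, 9.711 and 9.726 on the GPS2KO arrays and 9.017, 9.128 and 9.060 on the WT arrays. The lowest GPS2KO array stood 0.525 above the highest WT array. The means were 9.70 ± 0.04 in GPS2KO and 9.07 ± 0.06 in WT (SD, n = 3 each), a difference of 0.63 (SE 0.0448) or 1.55-fold, the largest of the 10. Cd200r4, the neighbouring gene for an activating receptor of the same family, had 9.215, 9.163 and 9.258 in GPS2KO and 8.851, 8.896 and 8.812 in WT. Its groups were also apart, by 0.268, and the difference was 0.36 (SE 0.0435, 1.28-fold). The array annotation lists 1 transcript record under both Cd200r1 and Cd200r4, so their probe sets may share signal and are not counted as independent of each other.

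The other genes of the CD200 system were at lower differences. Of Cd200, Cd200r2 and Cd200r3, 0 passed the limma threshold, and 1, Cd200r2, had an unadjusted p under 0.05, against 3906 of all 18820 genes. Cd200r2, another receptor of the activating kind in mice, averaged 7.06 ± 0.08 in GPS2KO and 6.89 ± 0.04 in WT (difference 0.17, limma adjusted p = 0.105). Cd200r3, a receptor of mast cells and basophils, was dim, at 3.71 in GPS2KO and 3.63 in WT. The ligand gene Cd200 was at 7.46 ± 0.05 in GPS2KO and 7.44 ± 0.07 in WT, a difference of 0.01 (SE 0.0494, adjusted p = 0.914). The 4 receptor genes and Cd200 lie on chromosome 16, with other genes left aside, in the order Cd200r1, Cd200r4, Cd200r2, Cd200r3, Cd200, and the differences stood in that same order from 0.63 to 0.01. No gradient is read from this. Cd200r1 and Cd200r4 were chosen with their differences known and may share signal, and the differences of the others did not pass.

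The CD300 receptors bind phospholipids exposed on dying cells, among other lipids. Cd300lf, an ITIM receptor that is also the entry receptor of mouse norovirus, had a log2 signal of 7.774, 7.863 and 7.918 in GPS2KO and 7.488, 7.473 and 7.582 in WT. The groups were apart by 0.192, and the difference was 0.34 (SE 0.0523, 1.26-fold). Cd300ld, whose protein pairs with the Fc receptor gamma chain, had 11.684, 11.726 and 11.693 in GPS2KO and 11.399, 11.425 and 11.390 in WT. Arrays of a group lay close together here, with SDs of 0.0222 in GPS2KO and 0.0185 in WT beside a difference of 0.30 (SE 0.0366, 1.23-fold). Cd300a, the other ITIM receptor of the family, had 10.068, 10.091 and 10.067 in GPS2KO and 9.948, 10.090 and 10.076 in WT. The GPS2KO arrays lay level with WT replicates 2 and 3, and only WT replicate 1 stood lower. The difference was 0.04 (SE 0.0479), and without WT replicate 1, the low array, it was -0.0075.

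Around these, 5 further CD300 genes were tested, and 0 passed the limma threshold. An unadjusted p under 0.05 was reached by 2 of the 5, against 3906 of all 18820 genes. The 2 were Cd300c2 (difference 0.15, adjusted p = 0.0574) and Cd300lb (0.11, adjusted p = 0.168), which both encode receptors of the DAP12 kind. Cd300e was at -0.18 (adjusted p = 0.3), Cd300c at -0.03 and Cd300lg, a gene of endothelium, at -0.04. The probe sets for Cd300ld5 and Cd300ld3 carried both symbols and were kept apart. They had differences of 0.119 and 0.119 (adjusted p = 0.234 and 0.228 in the limma fit over every probe set), and they cannot be assigned to 1 gene. In chromosome order the cluster held Cd300a (0.04), Cd300lb (0.11), Cd300c (-0.03), Cd300ld (0.30), Cd300c2 (0.15), Cd300e (-0.18) and Cd300lf (0.34), so the differences of the run did not all point 1 way.

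**Figure D2:**
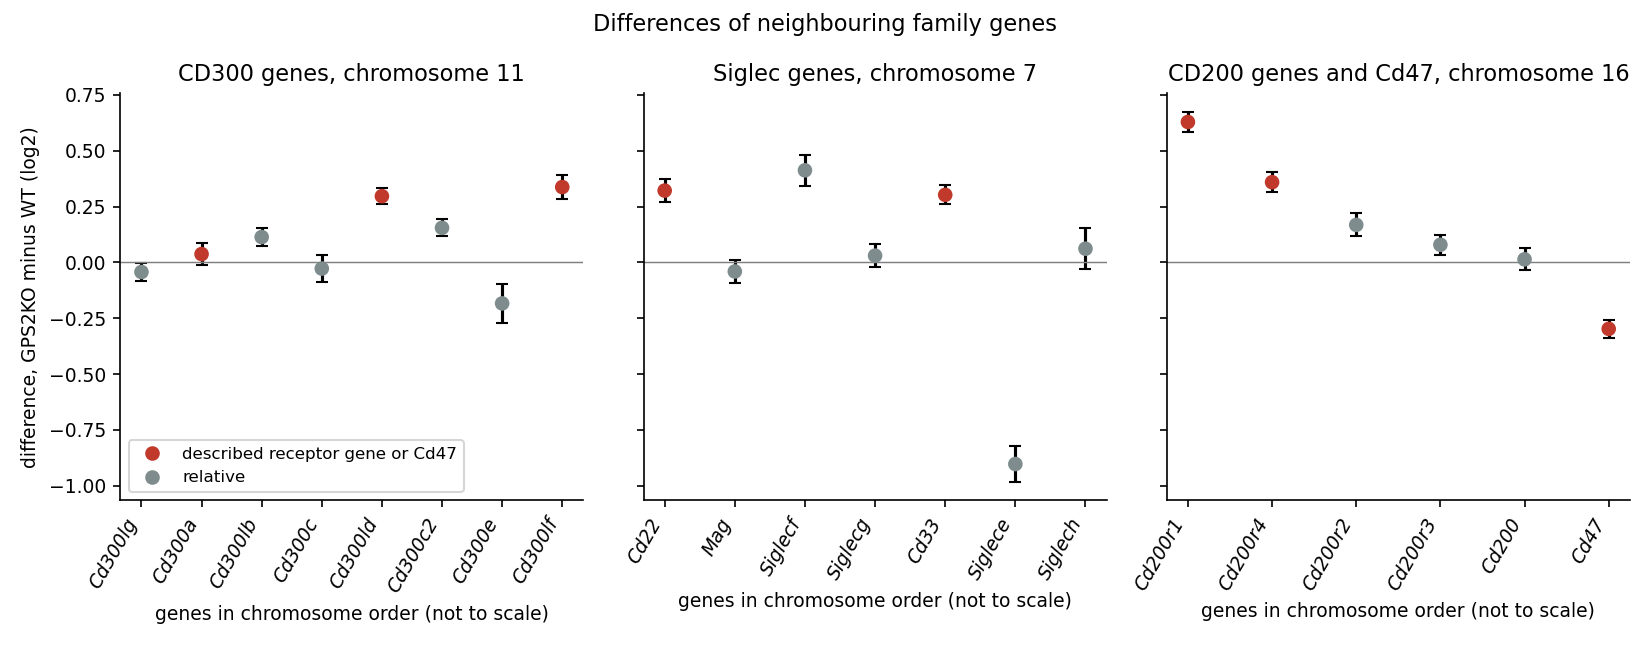
Difference in log2 signal, GPS2KO minus WT, of the tested CD300, Siglec and CD200 family genes and Cd47 (points, with limma's standard error as bars), in chromosome order and not to scale. Cd300ld and Cd300lf stand at 0.30 and 0.34 with Cd300e between them at -0.18, and Cd33 at 0.30 is drawn next to Siglece at -0.90.

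Siglecs bind sialic acids on the surface of the same or of other cells. Cd33 had a log2 signal of 11.060, 11.113 and 11.121 in GPS2KO and 10.807, 10.836 and 10.745 in WT. The groups were apart by 0.225, and the difference was 0.30 (SE 0.042, 1.23-fold). Cd22 encodes an ITIM receptor best known as a brake on the B cell receptor. Its signal was 7.834, 7.726 and 7.847 in GPS2KO and 7.454, 7.551 and 7.437 in WT. The difference was 0.32 (SE 0.0514, 1.25-fold), with a gap of 0.175 between the groups. Because Cd22 marks B cells, the markers of that cell type were read beside it. Of 6 tested, 5 were dim and Cd79b fell (-0.46, limma adjusted p = 0.00373). The summed linear signal of the 6 ran from 213 to 223 in GPS2KO and from 251 to 260 in WT. Since the other 5 were dim, the lower sum was mostly the fall of Cd79b. Of the 6, 3 had a higher mean in GPS2KO and 3 a lower one. In bulk RNA, fewer cells of a type and less RNA per cell cannot be told apart.

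Siglec1, or CD169, is a large adhesion receptor of macrophages that interferon is known to induce. Its log2 signal was 9.823, 9.854 and 9.877 in GPS2KO and 10.101, 10.261 and 10.239 in WT. All GPS2KO arrays were lower, by at least 0.224, and WT replicate 1 was the lowest WT array. The means were 9.85 ± 0.03 in GPS2KO and 10.20 ± 0.09 in WT (SD, n = 3 each), a difference of -0.35 (SE 0.0514), or 1.27-fold lower in GPS2KO. Among the 10 genes it was the lower-side difference of greatest size. The culture's macrophage identity was read from 8 markers, none of which was dim. Csf1r, the receptor of the growth factor, averaged 12.78 in GPS2KO and 12.74 in WT. The summed linear signal of the 8 ran from 43224 to 43374 in GPS2KO and from 41434 to 42704 in WT. Mertk and Itgam rose (0.24 and 0.19, limma adjusted p = 0.00991 and 0.0279), the Itgam call ending without any 1 array (0.0557 to 0.1). Of the 8, 6 had a higher mean in GPS2KO, 5 of them with groups not overlapping. A lower mean was found for 2, namely Cd14 (-0.10, groups not overlapping) and Lyz2 (-0.04). Over all genes, 11.9% lay higher in GPS2KO without overlap and 15.2% lower. The part of these markers in the differences of the receptor genes was not tested.

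Siglec genes that were not among the 10 moved both ways. Of 6 tested, Siglece fell and Siglecf rose, and 4 did not pass. Siglece encodes an ITIM receptor of mouse neutrophils and macrophages, and it had 8.16 ± 0.16 in GPS2KO and 9.06 ± 0.06 in WT, a fall of 1.87-fold (difference -0.90, SE 0.0804, limma adjusted p = 0.000838). The neighbouring Cd33 was higher in GPS2KO, so adjacent Siglec genes differed in direction. Siglecf, an ITIM receptor of eosinophils and alveolar macrophages, had 7.30 ± 0.02 in GPS2KO and 6.89 ± 0.14 in WT (difference 0.41, SE 0.0692, adjusted p = 0.0128). Without WT replicate 1 its adjusted p was 0.0502. Of 4 eosinophil markers, read beside it, Ccr3 and Prg2 fell (-0.79 and -0.25, adjusted p = 0.00204 and 0.029, Prg2 up to 0.0988 with 1 array left out), while Epx and Il5ra did not pass (0.10 and 0.06, adjusted p = 0.389 and 0.581). All but Ccr3 were dim, so the summed signal, 161 to 183 in GPS2KO and 247 to 280 in WT, was mostly that of Ccr3. Siglecg, Siglech, Siglec15 and Mag lay between -0.07 and 0.06.

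SIRPA on a macrophage reads CD47 on the cell it meets, the signal known for sparing healthy cells from being engulfed. Sirpa had a log2 signal of 12.630, 12.570 and 12.592 in GPS2KO and 12.509, 12.552 and 12.475 in WT. The lowest GPS2KO array was only 0.0187 above the highest WT array, and the difference was 0.09 (SE 0.0402, 1.06-fold). Cd47 had 11.206, 11.301 and 11.273 in GPS2KO and 11.531, 11.573 and 11.570 in WT. It was lower on every GPS2KO array, by at least 0.229, and the difference was -0.30 (SE 0.0414, 1.23-fold lower in GPS2KO). A second Cd47 probe set gave means of 10.31 ± 0.07 in GPS2KO and 10.59 ± 0.05 in WT, a difference of -0.28. Its groups did not overlap either, though it comes from the same RNA samples. Fibroblast markers were read beside Cd47, which most cell types express. Of 7, Col1a1 and Pdgfrb fell and Dcn rose, with the calls of Col1a1 and Dcn lost without some single arrays (adjusted p up to 0.0796 and 0.115). The summed signal of the 7 ran from 8987 to 9107 in GPS2KO and from 9920 to 10510 in WT. However, 3 of the 7 had a higher mean in GPS2KO and 4 a lower one. The part of these markers in the Cd47 difference was not tested.

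Of 4 further genes tied to this pair, 0 passed, and 0 had an unadjusted p under 0.05 in limma, against 3906 of all 18820 genes. Thbs1, for thrombospondin, another ligand of CD47, was at 12.96 in GPS2KO and 12.99 in WT (difference -0.03). Qpctl, the enzyme that modifies CD47 for binding by SIRPA, differed by -0.07, and the lung collectin genes Sftpa1 and Sftpd by 0.02 and 0.12. SIRPB1 is the DAP12-paired relative of SIRPA. Its 4 probe sets each carry the symbols Sirpb1a, Sirpb1b and Sirpb1c and cannot be assigned among these near-identical genes. They differed by -0.46 to -0.54, and all 4 lay below WT without overlap. In the limma fit over every probe set 3 of the 4 passed, one of them at 10.07 ± 0.05 in GPS2KO and 10.60 ± 0.08 in WT (adjusted p = 0.00997, up to 0.0557 without WT replicate 2 or GPS2KO replicate 2 or 3) and the one that did not pass at adjusted p = 0.0954. Within this family, the activating copies thus stood lower in GPS2KO while Sirpa stood at 0.09.

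Downstream of the 10 genes, 22 signalling partners were tested, of which 1 rose, 3 fell and 18 did not pass (18.2% past the threshold, against 6.72% of all genes). The shares are not of like genes, since 0 of the 22 were dim. With dim genes left out of the fit, 7 of the 22 and 1962 of 11292 genes passed. Dok2, the adaptor that CD200R1 docks, rose to 10.49 ± 0.05 in GPS2KO, against 10.24 ± 0.04 in WT (difference 0.25, limma adjusted p = 0.0161), alongside its receptor. Dok1 and Rasa1, the next steps of that pathway, differed by 0.00 and 0.04. Ptpn6, which encodes the phosphatase SHP-1 recruited by ITIMs, fell by 0.24 (adjusted p = 0.0102), whereas Ptpn11, for SHP-2, was at -0.02 (adjusted p = 0.875). Fgr, a Src-family kinase, fell 1.82-fold (-0.87, adjusted p = 0.000336), and the adaptor Dok3 fell by 0.18 (adjusted p = 0.0465). The activating adaptors Tyrobp, for DAP12, and Fcer1g, for the gamma chain used by CD300LD, differed by 0.09 and 0.06 and did not pass (adjusted p = 0.285 and 0.481). The Dok2 call ended without WT replicate 2 or 3 or GPS2KO replicate 1 or 3 (adjusted p up to 0.0669) and that of Dok3 without any 1 array (0.0815 to 0.132), while those of Ptpn6 and Fgr held with each array left out. The median of the list was -0.01, and that over all genes was also -0.01 to 2 decimals.

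Ligands of Siglecs were read through 30 genes of sialic acid synthesis, transfer and removal, of which 2 rose, 3 fell and 25 did not pass (16.7% past the threshold, against 6.72% of all genes). Npl, the lyase that breaks down free sialic acid, rose 1.72-fold (0.78, limma adjusted p = 0.000178), and St8sia4, which builds polysialic acid, rose 1.40-fold (0.49, adjusted p = 0.00143). St3gal3 and St3gal1, which add sialic acid to galactose, fell by 0.23 and 0.19 (adjusted p = 0.0171 and 0.032). Cmah, named after its value was seen, makes the sialic acid form that mouse CD22 prefers, and it fell by 0.18 (adjusted p = 0.045). St6gal1, which makes the linkage that CD22 binds, was at -0.02 (adjusted p = 0.818) and was likewise named after its value was seen. The calls of Npl and St8sia4 held with each array left out. The St3gal1 call ended without any 1 array (adjusted p 0.0643 to 0.103), that of Cmah without each array other than GPS2KO replicate 1 (up to 0.147) and that of St3gal3 without WT replicate 1 or 3 or GPS2KO replicate 2 or 3 (up to 0.0703). St3gal1 had a second, dimmer probe set, at -0.11.

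**Figure D3:**
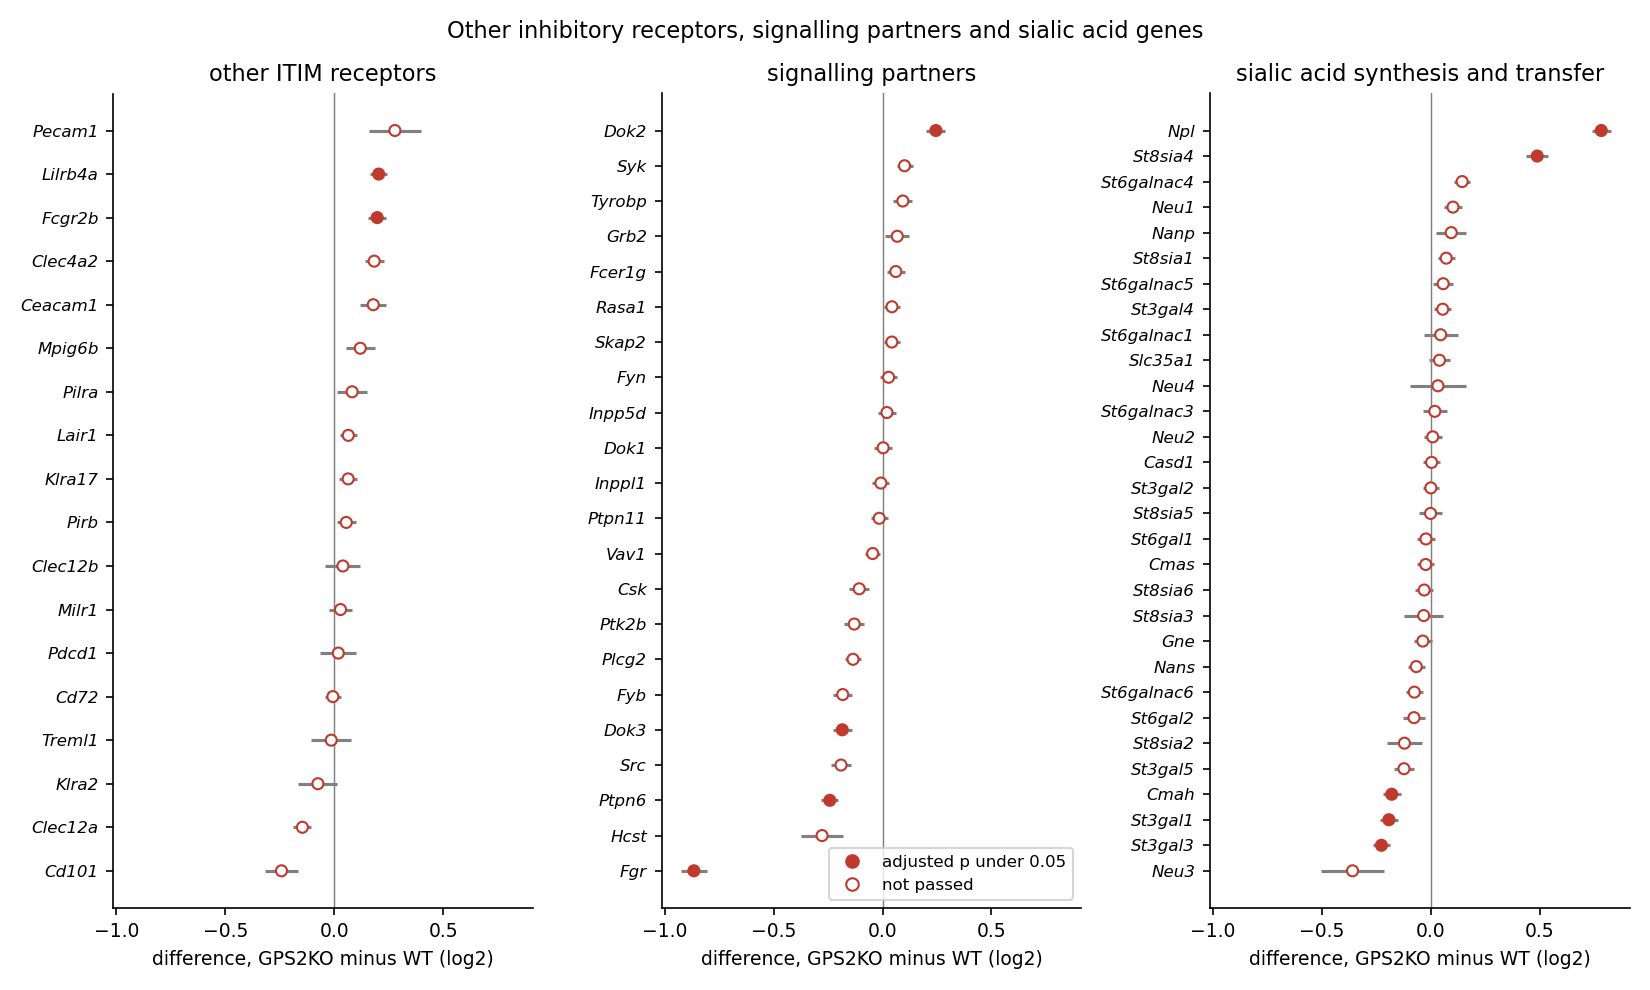
Difference in log2 signal, GPS2KO minus WT (points, with limma's standard error as bars), of other ITIM receptors, signalling partners and sialic acid genes. Filled points passed the adjusted p of 0.05: Lilrb4a and Fcgr2b in the left panel, Dok2, Dok3, Ptpn6 and Fgr in the middle, and 5 genes from Npl at 0.78 to St3gal3 at -0.23 in the right panel.

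Among 18 other ITIM receptors, 2 rose, 0 fell and 16 did not pass, with a median of 0.06. This count leaves out the ITIM receptors Siglece, which fell (-0.90), and Siglecf, which rose (0.41), because they were listed with the relatives. Lilrb4a, of the leukocyte immunoglobulin-like receptors, rose by 0.20 (limma adjusted p = 0.0225) and Fcgr2b, the inhibitory Fc receptor, by 0.20 (adjusted p = 0.0339). Lilrb4a lost its call when any array other than GPS2KO replicate 2 was left out (adjusted p up to 0.0875), and that of Fcgr2b without any 1 array (0.0563 to 0.117). Cd200r1, Cd300lf and Cd22, which also signal inhibition, had differences of 0.63, 0.34 and 0.32. Those of Sirpa and Cd300a, which carry ITIMs as well, were 0.09 and 0.04. Together with the relatives of the 10 genes, of which 1 of 18 rose and 1 fell, these lists had 11.1% of their genes past the threshold each, against 6.72% of all genes. The shares are not of like genes, since 4 of the 18 relatives and 5 of the 18 ITIM receptors were dim, against 40% of all genes. With dim genes left out of the fit, 3 of 14 relatives, 4 of 13 ITIM receptors and 1962 of 11292 genes passed.

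The arrays were alike: their medians ran from 5.57 to 5.60, and Pearson correlations across genes were at least 0.9989 within groups and at most 0.9981 between groups. Gps2 itself had a log2 signal of 10.289, 10.164 and 10.187 in GPS2KO and 10.943, 10.931 and 11.002 in WT, lower on each GPS2KO array (difference -0.75, SE 0.0472, limma adjusted p = 0.000256). Probes that lie outside the deletion would not test the labels. Among markers of cells not taken up above, 0 of 8 for neutrophils, 0 of 7 for dendritic cells, 0 of 7 for mast cells and basophils and 0 of 6 for T and NK cells passed in limma, with 1, 1, 0 and 0 at an unadjusted p under 0.05. Over all 18820 genes, 3906 were at that level. The signal of 1 probe set cannot be set against that of another, so no order of abundance among the 10 genes is given.

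**Figure D4:**
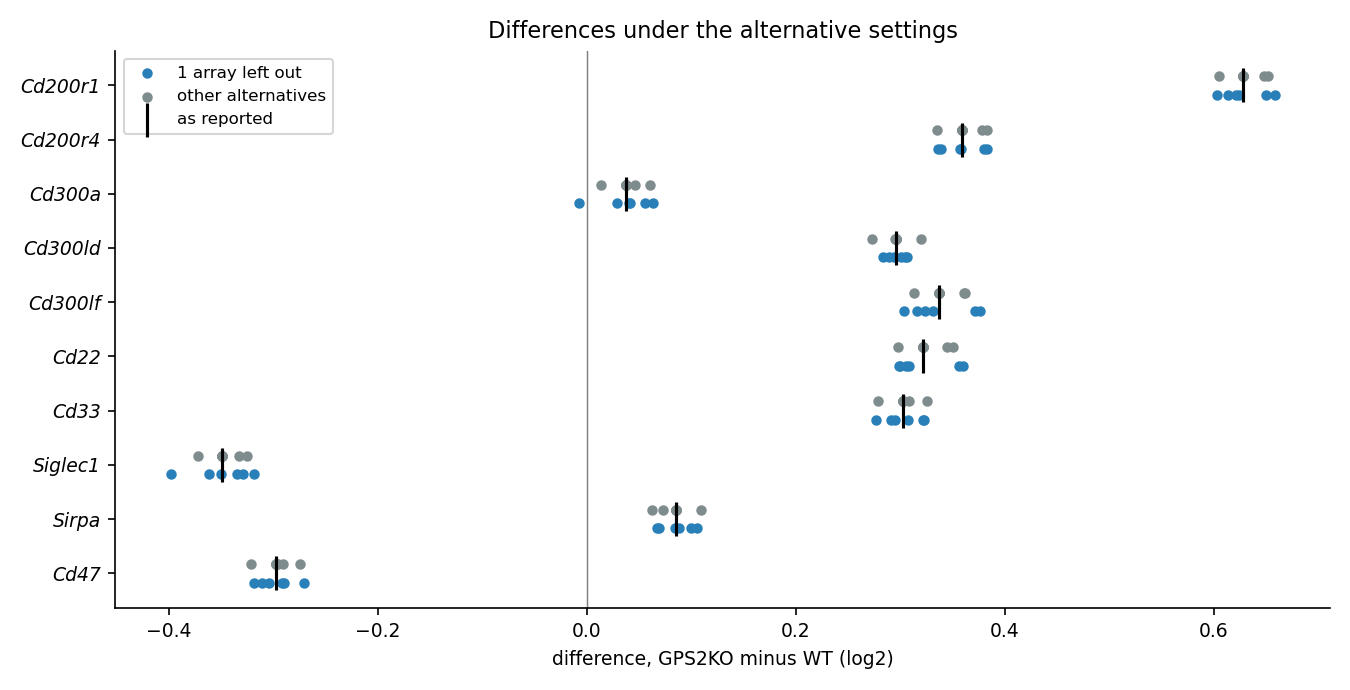
Difference in log2 signal, GPS2KO minus WT, of the 10 genes as reported (black bars) and under the alternatives (points, with 1 array left out in blue). Each of the 10 stays on its side of 0 except Cd300a, which reaches -0.0075.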

How the data were processed

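Each probe set had 1 deposited log2 intensity per array, which the authors made with RMA in the R package oligo, per the submitters' processing notes. RMA corrects background, quantile-normalizes across arrays and summarises probes by median polish. A change shared by most genes would therefore not be seen, and background compresses the differences of dim genes. No version or annotation build is given in the sources used here. The number of arrays limits the precision.

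Of 35556 probe sets, 21218 carried 1 gene symbol in GEO's platform annotation, 1881 several, and 12457 none. RefSeq's GRCm38.p6 table matched 21185 of the 21218 by gene number and changed 0 symbols. The probe set with the highest mean stood for a gene, which left 18820 genes. They were fitted with limma 3.58.1 (R 4.3.3; lmFit and eBayes, group as the only term, 2-sided), and p-values were adjusted by Benjamini-Hochberg over all of them, with a threshold of 0.05. Probe sets with several symbols were read from a fit over all 35556. The fit was tested on simulated data. No sample was dropped.

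The 10 genes, the 7 lists around them and the 8 marker lists were chosen with earlier results of these data known. Of the relatives 18 of 25 were tested. The rule named every tested relative, and in the other lists the genes past the threshold, up to 4 by smallest p, with the marker genes a result stands beside; Csf1r, Dok1, Rasa1, Ptpn11, Tyrobp, Fcer1g, Cmah and St6gal1 were named after their values were seen. The motif was chosen after the differences were seen. The alternatives were quantile normalization, median centring, a variance trend, leaving out dim genes, averaging probe sets, testing every probe set, a replicate block and leaving out each array. Across all tested genes, same-numbered GPS2KO and WT arrays did not deviate together.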

Additional observations from a re-analysis of the deposited data

How the results depend on the processing

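For the 10 genes, 8 passed the threshold under every alternative but a variance trend, where Sirpa was the 9th, and 8 with each array left out. Of the 10 differences, that of Cd300a, which had not passed, changed sign, ranging from -0.0075 without WT replicate 1 to 0.0631 with another array left out, and the cause was not tested. Over all genes, 1265 passed (545 rose and 720 fell), with 824 when every probe set was tested, 2174 with a variance trend, 1962 without dim genes and 749 to 842 with 1 array left out. Centring each array on the median of all its probe sets gave 460 rises and 1061 falls, and centring on the tested genes, chosen after seeing the data, 659 rises and 568 falls, with median differences of -0.03 and 0.02. The split of all genes between rises and falls thus turned with the centring. For the 10 genes it was 6 and 2 in each. Nothing is read from that, since they were chosen with their differences known. The Cd200r1 difference, the largest, was 0.60 after centring on all probe sets and 0.65 after centring on the tested genes. The part of centring in the differences was not tested. Of the relatives 2 passed, against 1 when every probe set was tested, 4 with a variance trend and 1 to 2 with 1 array left out. Of the other ITIM receptors 2 passed, against 0 (limma, 6 at an unadjusted p under 0.05) when every probe set was tested, 5 with a variance trend (4 rose and 1 fell), 4 without dim genes (3 rose and 1 fell) and 0 to 1 with 1 array left out (5 to 7 at an unadjusted p under 0.05). Over the 18820 genes, 3376 had an unadjusted p under 0.05 in limma when every probe set was tested, and 3251 to 3811 with 1 array left out. Of the signalling partners 4 passed, against 7 after median centring, 2 when every probe set was tested, 8 with a variance trend, 7 without dim genes and 2 to 3 with 1 array left out. Of the sialic acid genes 5 passed, against 2 when every probe set was tested, 3 after centring on the tested genes and 2 to 4 with 1 array left out. The cause of these differences in the counts between settings was not tested.

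With the replicate number as a block, 862 genes, 8 of the 10, 2 relatives, 1 other ITIM receptor, 3 signalling partners and 3 sialic acid genes passed. That ITIM receptor was Cd101, named after its value was seen, which was lower in GPS2KO (adjusted p = 0.0493 with the block), whereas Lilrb4a and Fcgr2b did not pass (0.074 and 0.0862). The labels do not say whether same-numbered arrays were prepared together. Across all tested genes, deviations from the group means correlated at 0.00348, 0.0258 and -0.00604 between same-numbered arrays. These values cannot exclude a pairing that touches only some genes. Dim signals, such as that of Cd200r3, limit what can be seen of a change.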

Other observations

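The pattern nearest to that of Cd200r1, by the root mean square distance between gene-centred log2 values over the 6 arrays, was that of Gab1, at 0.0391, followed by B430306N03Rik at 0.0396 and Etv1 at 0.048, where the median over all tested genes was 0.327. Gab1 averaged 8.75 in GPS2KO and 8.17 in WT, B430306N03Rik 10.56 in GPS2KO and 9.88 in WT, and Etv1 9.63 in GPS2KO and 9.03 in WT. With 3 arrays in each group, the distance mostly reads the size of the group difference.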
